A study of Homo sapiens with 18 samples.

Results

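Interferon-stimulated genes were followed as a list of 9 named genes, *IFIT1*, *IFIT2*, *IFIT3*, *ISG15*, *MX1*, *OAS1*, *IFI6*, *IRF7* and *LY6E*, out of 57500 genes counted in each library. All 9 were found in the files by 1 identifier each. The study silenced the co-chaperone gene *DNAJC17* in 2 human sarcoma cell lines, ES8 (Ewing sarcoma) and Rh30 (rhabdomyosarcoma), by CRISPRi, which blocks transcription with a guided, inactive Cas9 (dCas9) joined to a repressor domain (KRAB). Parental cells of each line were given either sgCTL, a control guide RNA, or sgDNAJC17, a guide to the *DNAJC17* gene. The remaining group carried the allele 3xFLAG-DNAJC17-dRRM, a tagged DNAJC17 without its RNA-binding motif (ΔRRM), driven by an EF1 promoter in cells selected with hygromycin, and was also given sgDNAJC17. All groups express dCas9-KRAB, were transduced with lentivirus and were kept in puromycin for 72 hours. Each of the 6 groups had 3 libraries, A, B and C. No ΔRRM library had sgCTL, so the allele, the separately selected cell population and the sgRNA cannot be told apart in the ΔRRM comparisons. Nothing in the labels says that the replicates came from separate cultures beyond plating in triplicate, so the p-values measure the spread between these libraries, which may be technical.

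Cells make type I and type III interferons when sensors such as RIG-I and MDA5 detect double-stranded or otherwise unusual RNA, or when cGAS detects DNA outside the nucleus. Secreted interferon binds its receptors, JAK kinases pass the signal on, and a transcription factor complex, ISGF3, then binds the interferon-stimulated response element (ISRE) in promoters. Among the target genes, the IFIT proteins bind viral RNA, MX1 is a GTPase that traps viral particles, OAS1 makes the 2'-5'-linked oligoadenylates that start RNA decay, ISG15 is a ubiquitin-like modifier, and IRF7 is a transcription factor that raises further interferon production. Several of these genes are also expressed at a low level without interferon.

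The promoter sequences show which of the 9 genes hold letters of the ISRE. RefSeq promoters of GRCh38.p14, from 250 bases before to 50 bases after each start, were given for 6 of the 9 genes (9 windows, with 2 for *IFIT3* and 3 for *MX1*) and were searched on both strands for the ISRE core, which is GAAA, any 2 bases and GAAA again (TTTC in place of GAAA on the other strand). The core was found in 3.57% of 35116 promoters of all genes. *ISG15* held 2 overlapping matches, *IFI6* 3, *IFIT1* 2 and both *IFIT3* windows 2 each, while 2 of the 3 *MX1* windows held 1. The *OAS1* window held none of these letters and 1 match to GAS (TTCNNNGAA), the motif of interferon-γ activated genes, which was found in 7.66% of all promoters. Of the 3 *MX1* windows, 1 also held a match to GAS. The sequences are shown for 1 match each in the 4 genes that carry most of the results below, as 30 bases of the gene's own strand with the core in capitals.
ISG15, 1:1013380-1013409, plus strand: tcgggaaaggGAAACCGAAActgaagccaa
IFI6, 1:27672288-27672317, minus strand: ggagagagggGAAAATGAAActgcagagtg
IFIT1, 10:89392497-89392526, plus strand: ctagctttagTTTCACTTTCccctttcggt
IFIT3, 10:89327865-89327894, plus strand: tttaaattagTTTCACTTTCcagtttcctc
The first bases of these matches lie 107, 115, 116 and 122 bases before the start. *IFIT2*, *IRF7* and *LY6E* were not analysed here for motifs.

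The unit of level is CPM, in which each count is divided by the size of its library, with TMM factors computed across all 18 libraries. The library totals ran from 35342393 to 48245989 counts, and 3 counts, the limit that a count of 0 allows, equal between 0.0596 and 0.101 CPM. These limits cover counting error only. *DNAJC17* checked the labels, at 12.1 ± 0.696 CPM (SD, n = 3) with sgCTL, 1.67 ± 0.227 CPM with sgDNAJC17 and 301 ± 15.6 CPM in the ΔRRM group of ES8, and at 11.5 ± 0.602, 2.49 ± 0.261 and 353 ± 18.6 CPM in Rh30. The Ewing markers *NR0B1*, *NKX2-2*, *STEAP1* and *LIPI* held at most 3 counts in any Rh30 library. The muscle marker *CHRNA1* was at 0 in 8 of the 9 ES8 libraries and at 25 counts in ΔRRM replicate C, where *MYOD1* held 81 counts against 15 to 38 in the others. Replicate A of ES8 with sgDNAJC17 stood apart, with a median absolute log2 deviation from its group mean of 0.153 against 0.0502 to 0.12 in the other 17 libraries, and its deviations followed the GC content of the genes (r = 0.558 over 16814 genes). Calls in ES8 that changed without either of these 2 libraries are given below.

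The interferons themselves were near the limit of detection. Of 21 interferon genes, 17 were at 0 in all 18 libraries, and the other 4 held 9 counts in all, with at most 3 in a library.

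The 9 genes differed most between the lines, and the plot of the members' levels by library shows this first. Genes in general did so too, with 87.5% of all genes tested between the lines called different at the threshold given below. With sgCTL, the highest level per length in ES8 was that of *LY6E*, a membrane-anchored protein that limits entry of some viruses, at 97.6 ± 4.67 CPM per kb (SD, n = 3). It was followed by *ISG15* (63.8 ± 1.52 CPM per kb), *IFI6* (19.9 ± 1.30), *IRF7* (5.04 ± 0.343), *OAS1* (1.87 ± 0.151), *IFIT3* (1.03 ± 0.0480), *IFIT2* (0.561 ± 0.0363), *IFIT1* (0.537 ± 0.122) and *MX1* (0.186 ± 0.00308), and only the ranges of *IFIT2* and *IFIT1* overlapped between neighbours. In Rh30 with sgCTL the order was *ISG15* (27.1 ± 1.27 CPM per kb), *IFI6* (22.1 ± 1.28), *IFIT3* (1.36 ± 0.165), *IFIT2* (1.03 ± 0.0540), *IFIT1* (0.670 ± 0.0248), *IRF7* (0.453 ± 0.0747), *OAS1* (0.0761 ± 0.0269), *LY6E* (0.00877 ± 0.00870) and *MX1* (0), and the ranges of *LY6E* and *MX1* overlapped.

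**Figure D1:**
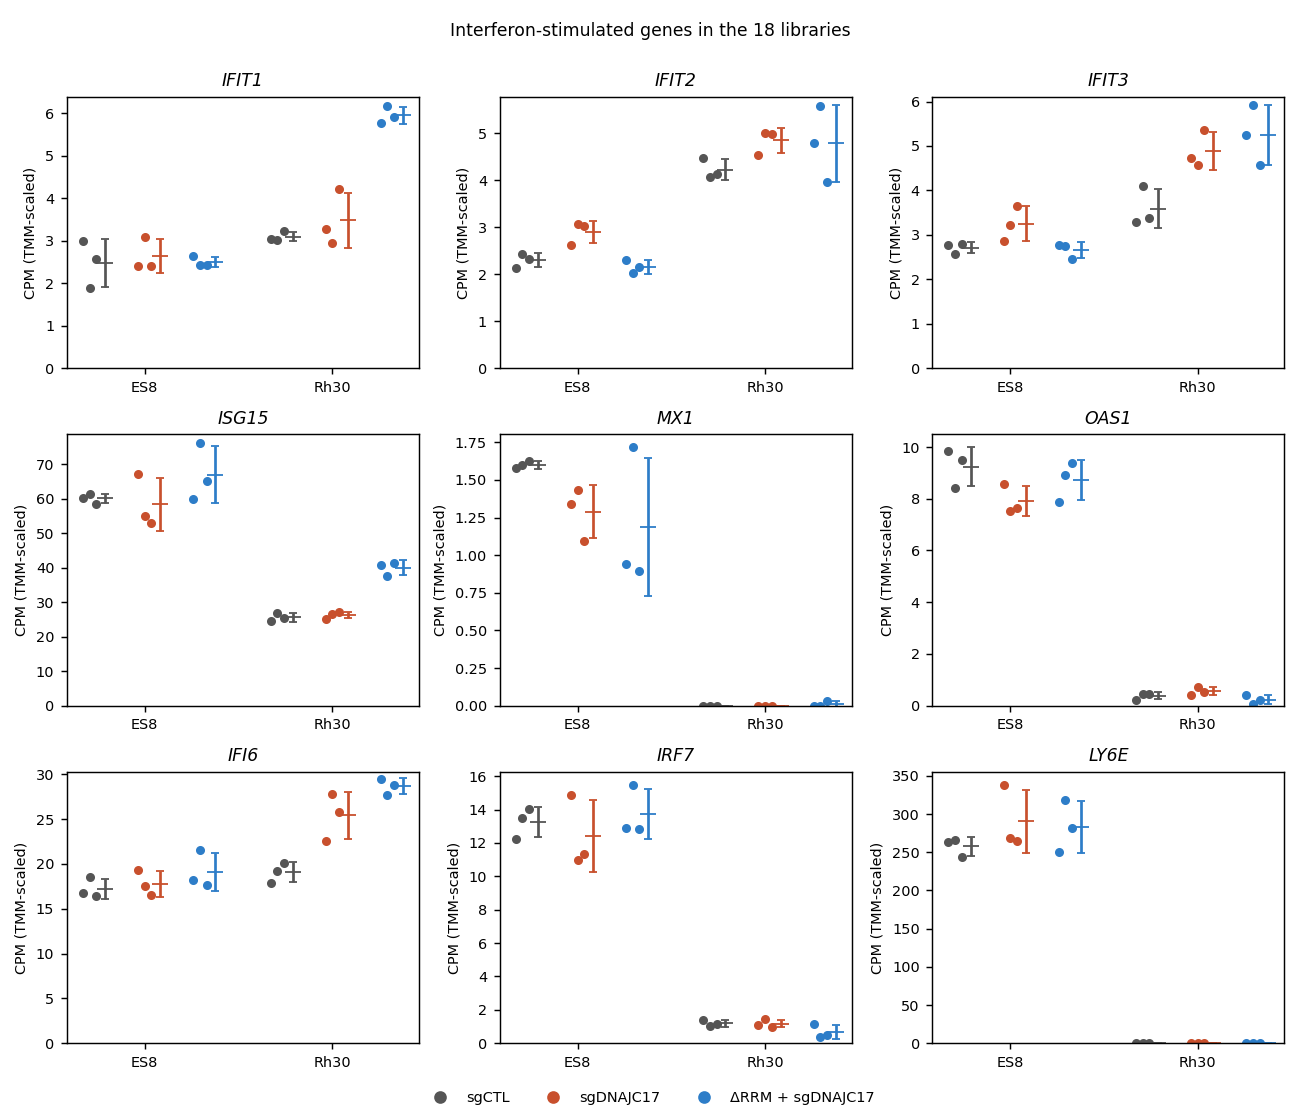
Level of each of the 9 genes, in CPM after TMM scaling, in the 18 libraries (points), with the mean and SD of each group of 3 beside them. *MX1* and *LY6E* sit at or near 0 in Rh30, and *IFIT1* and *ISG15* are higher in the 3 Rh30 ΔRRM libraries than in the other 6 Rh30 libraries.

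Tested with edgeR's quasi-likelihood test over all genes, with Benjamini-Hochberg adjustment and an adjusted p under 0.05 as the threshold for every change named here, *IFIT2* was higher in Rh30 than in ES8 by 0.86 on the log2 scale and *IFIT3* by 0.39, and 5 of the 9 genes were lower. Across all 17925 genes tested between the lines, 42% were higher in Rh30 and 45.5% lower, and 22.2% and 28.7% were so by at least 2-fold. Of the 5 lower genes, *MX1*, *LY6E* and *OAS1* passed the filter on low counts only through ES8 libraries, in which they were high. Their calls therefore add no support to the count of 5. Where genes under 10 counts in any library were left out, 2 were lower, *ISG15* and *IRF7*. *ISG15* was lower in Rh30 by a log2 difference of -1.25, *IRF7* by -3.49 and *OAS1* by -4.61. *MX1* held 78, 74 and 82 counts in the ES8 sgCTL libraries and none in those of Rh30, so it was at least 21.5-fold higher in ES8, with the floor of 3 counts set per library. *LY6E* held 37653 counts over the 3 ES8 libraries and 3 over those of Rh30. *IFI6* and *IFIT1* did not pass the threshold. The *IFIT3* difference lost its call without Rh30 sgCTL replicate B (adjusted p = 0.0845, edgeR) and with library size alone (0.17, adjusted p = 0.243). *IFI6* gained one without ES8 sgCTL replicate B or Rh30 sgCTL replicate A (both 0.19), and *IFIT1* without ES8 sgCTL replicate A (0.45).

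Other genes of the pathway were also unevenly present. *CGAS*, the DNA sensor, held 1177, 1195 and 1143 counts in Rh30 with sgCTL and 0, 0 and 1 in ES8, while *IFIH1*, which encodes the RNA sensor MDA5, held 3, 1 and 3 counts in Rh30 and 358, 387 and 380 in ES8. *IFNLR1*, the receptor chain for type III interferons, held 366, 279 and 329 counts in ES8 and 1, 1 and 2 in Rh30, and *PARP12*, an interferon-induced antiviral protein, held 528, 447 and 496 in ES8 and at most 1 in Rh30. *IFITM1*, which blocks fusion of viruses with the cell, held 1059, 947 and 1109 counts in ES8 and 5, 1 and 6 in Rh30. *CMPK2*, an interferon-induced mitochondrial kinase, was at 0 in all 9 Rh30 libraries and at least 122-fold higher in ES8. The presenting side of the system was higher in Rh30, where 11 of 14 antigen presentation genes were above ES8 and 3 below, with a median log2 difference of 1.22 against -0.07 over all genes. Of all genes, 42% were called higher in Rh30 and 45.5% lower. *HLA-B*, which presents peptides to T cells, was higher in Rh30 by 4.65 on the log2 scale (SE 0.06, adjusted p = 1e-44, edgeR), although reads of near-identical HLA genes may be split between them.

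Silencing of *DNAJC17* in ES8 addressed whether loss of this splicing-linked co-chaperone moves the interferon-stimulated genes, and none of the 9 passed the threshold in the comparison of sgDNAJC17 with sgCTL, where 13.6% of all genes tested were called higher and 13.8% lower. With DESeq2 the count was also 0, and at an unadjusted p under 0.05 edgeR gave 1 gene, *IFIT2*. *IFIT2* stood at 2.14, 2.44 and 2.32 CPM with sgCTL and at 2.63, 3.06 and 3.02 CPM with sgDNAJC17, in the order of the replicates. The groups did not overlap, as for 20.7% of all genes that lay apart and higher here, and the log2 fold change was 0.35 (95% interval 0.05 to 0.65, adjusted p = 0.0814, edgeR). *ISG15* stood at 60.3, 61.4 and 58.6 CPM with sgCTL and at 67.2, 54.9 and 53.0 CPM with sgDNAJC17, a log2 fold change of -0.03 (95% interval -0.23 to 0.16). Replicate A lay above the sgCTL libraries and the other two below them. The intervals of the 9 genes together reached from -0.69 for *MX1* to 0.65 for *IFIT2*.

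This count depended on replicate A of the sgDNAJC17 group. Without it, *IFIT2* (0.42, adjusted p = 0.0312, edgeR) and *IFIT3* (0.36, adjusted p = 0.0476) were higher and *ISG15* (-0.14, adjusted p = 0.00926), *OAS1* (-0.27, adjusted p = 0.0154) and *IRF7* (-0.24, adjusted p = 0.0159) were lower, all on the log2 scale. In the same fit 22.4% of all genes were called higher and 22.9% lower. The GC content of the longest transcript is 42.8% for *IFIT2* and 43.1% for *IFIT3*, 40.7% for *OAS1*, 63.4% for *ISG15* and 66.8% for *IRF7*. The part of GC content in these calls was not tested. With a correction for GC content and length, *IFIT2* and *LY6E* were higher and *ISG15* was lower.

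Most of the other interferon-stimulated genes that passed the test in ES8 fell. Of 33 other interferon-stimulated genes tested, 1 rose and 8 fell, with a median log2 fold change of -0.21 against -0.02 over all genes. Of all genes in this comparison, 13.6% rose and 13.8% fell. Of 13 receptor and signalling genes, 5 fell and none rose. They include *STAT2*, named after its value was seen (-0.23, SE 0.07, adjusted p = 0.0393, edgeR, and -0.25 without replicate A). Of 13 sensors and their adaptors, 3 fell, of 7 inhibitors 1 rose, of 14 antigen presentation genes 2 rose and 4 fell, and of 5 NF-κB cytokine genes 1 rose. Without replicate A, where 22.4% of all genes were higher and 22.9% lower, 3 of 34 other interferon-stimulated genes rose and 11 fell, 3 receptor and signalling genes rose and 5 fell, 6 sensors and adaptors fell, 3 inhibitors rose, 2 antigen presentation genes rose and 5 fell, and 1 NF-κB cytokine gene rose. *OAS3*, another oligoadenylate synthetase, stood at 91.1, 91.3 and 90.3 CPM with sgCTL and at 70.1, 64.8 and 67.9 CPM with sgDNAJC17. All 3 knockdown libraries were below the control libraries, as for 24.1% of all genes in this comparison. The log2 fold change was -0.42 (SE 0.06, adjusted p = 0.000935, edgeR, and -0.44 without replicate A). *GBP1*, a GTPase induced by interferon-γ, stood at 2.87, 2.39 and 3.00 CPM with sgCTL and fell to 1.71, 1.96 and 1.55 CPM (-0.65, SE 0.16, adjusted p = 0.0126, and -0.64 without replicate A).

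In Rh30, 3 of the 8 genes tested rose with sgDNAJC17 (*IFIT3*, *IFI6* and *LY6E*) and none fell, in a comparison where 16.1% of all genes were called higher and 16.2% lower, 0.767% and 0.786% of all genes by at least 2-fold. *MX1* was not tested, with 0 counts in all 6 libraries. The median log2 fold change of the 8 was 0.32 against 0.00 over all genes. *LY6E* passed the filter on low counts only through the libraries in which it was high, so its call gives no support. Without it, 2 of 7 rose, with a median of 0.21.

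*IFI6*, a small protein of mitochondrial and endoplasmic reticulum membranes that counters apoptosis, stood at 17.9, 19.3 and 20.1 CPM with sgCTL and at 22.6, 27.9 and 25.8 CPM with sgDNAJC17. All 3 knockdown libraries were above all control libraries, as for 21% of all genes in this comparison, a log2 fold change of 0.43 (SE 0.09, adjusted p = 0.00259, edgeR). *IFIT3*, which stabilises IFIT1 on RNA, stood at 3.29, 4.09 and 3.39 CPM with sgCTL and at 4.73, 4.57 and 5.36 CPM with sgDNAJC17. It too did not overlap, at 0.46 (SE 0.13, adjusted p = 0.0165), but the call was lost without sgCTL replicate A (adjusted p = 0.0681), sgCTL replicate C (0.0622) or sgDNAJC17 replicate C (0.065). *IFIT1* and *IFIT2* had log2 fold changes of 0.19 (95% interval -0.14 to 0.51) and 0.21 (-0.04 to 0.46), and *ISG15* one of 0.05 (-0.10 to 0.21). *OAS1* (0.57, -0.21 to 1.35) and *IRF7* (-0.00, -0.49 to 0.49) had few counts, at most 27 and 57 in these libraries.

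*LY6E* held 0, 2 and 1 counts in the Rh30 sgCTL libraries, 22, 15 and 19 with sgDNAJC17 and 26, 19 and 9 in the ΔRRM group. Summed over libraries and scaled, this is a ratio of 19.8 (95% interval 6.42 to 98.7, exact binomial, counting error only) for sgDNAJC17 and of 21.7 (7.02 to 108) for ΔRRM. The level reached was 0.467 ± 0.0493 CPM (SD, n = 3) with sgDNAJC17, against 258 ± 12.3 CPM in ES8 with sgCTL. DESeq2 gave no adjusted p for it in the knockdown.

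Epithelial genes moved in the same libraries. Of 22 epithelial markers, 11 were higher in all 6 Rh30 libraries with sgDNAJC17 than in every Rh30 sgCTL library. Of all genes tested, 21% lay apart and higher than sgCTL in the 3 sgDNAJC17 libraries, and 32.6% in the 3 ΔRRM libraries. These shares are of each group alone, and the share for all 6 libraries at once is not given here. Of 13 epithelial markers tested, 6 rose and 1 fell with sgDNAJC17, where 16.1% of all genes rose and 16.2% fell. Some of these, such as *CDH1* and *TFF1*, could pass the filter on low counts only through the libraries in which they were high. The count of 6 therefore gives no support. The summed level of the list was 269 to 289 CPM with sgCTL, 292 to 316 CPM with sgDNAJC17 and 341 to 365 CPM in the ΔRRM group. Some markers were high in every Rh30 library, sgCTL included, with *KRT7* at 1884 to 2966 counts and *CLDN4* at 2953 to 4763. Both were named after their values were seen. With sgCTL, 3 of the 22 were at 0 in all 3 libraries. The keratin gene *KRT8* held 41, 39 and 28 counts with sgCTL, 486, 378 and 284 with sgDNAJC17 and 354, 311 and 296 in the ΔRRM group, and *TFF1*, a secreted epithelial peptide, held 1 in each sgCTL library and 21 to 33 in the other 6. Of 31156 genes with a count in Rh30, 4 held at most 2 counts in each sgCTL library and at least 8 in all 6 others, and these were *LY6E*, *CDH1*, *TFF1* and *SPTSSB*, named after their values were seen. The limits of 2 and 8 lie close to the counts of *LY6E* itself, at most 2 with sgCTL and at least 9 in the others. The number of genes that meet them is therefore a description only. The part of epithelial RNA in the *LY6E* result was not tested. Of the 7 Ewing markers, the 4 named above stayed at 3 counts or fewer in Rh30, and the 2 that were tested rose with sgDNAJC17 and fell in the ΔRRM group, with a summed level of the list of 583 to 599 CPM with sgCTL, 680 to 766 CPM with sgDNAJC17 and 425 to 473 CPM in the ΔRRM group. In bulk RNA, a few cells with much *LY6E* and many with a little cannot be told apart.

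**Figure D2:**
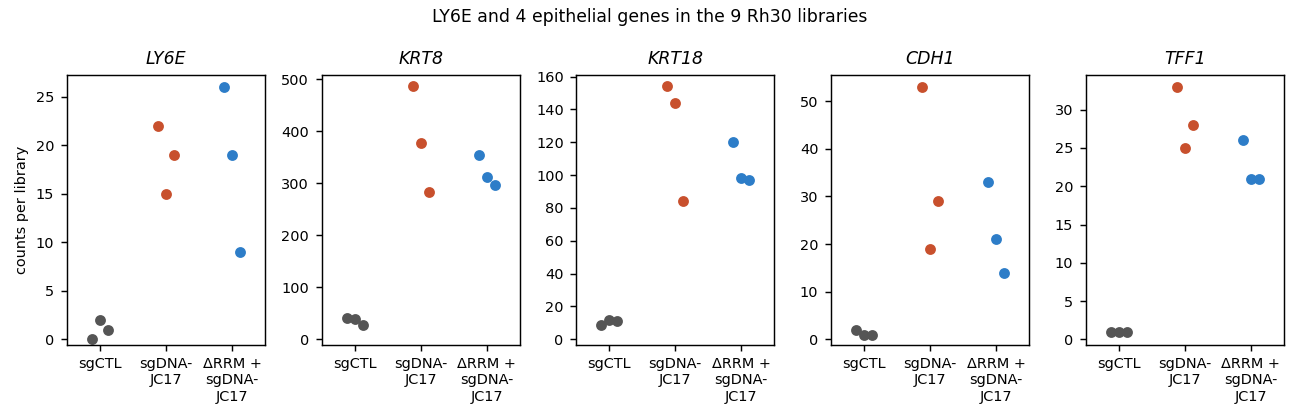
Raw counts per library of *LY6E* and 4 epithelial genes in the 9 Rh30 libraries, each point 1 library. All 5 genes are lower in the 3 sgCTL libraries than in the other 6, with at most 2 counts of *LY6E*, *CDH1* and *TFF1*. The 4 epithelial genes are among the 11 of 22 markers that were higher in all 6.

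The other genes of the system moved in both directions after knockdown in Rh30. Of 27 other interferon-stimulated genes tested, 2 rose and 1 fell, with a median of 0.01 on the log2 scale against 0.00 over all genes. Of all genes in this comparison, 16.1% rose and 16.2% fell. Of 13 antigen presentation genes 6 rose and 1 fell, with a median of 0.14. Of 12 receptor and signalling genes 2 fell, among them *STAT2*, named after its value was seen (-0.46, SE 0.08, adjusted p = 0.000734, edgeR), and 3 of 13 sensors and adaptors fell. Only 3 NF-κB cytokine genes were tested, of which 2 rose and none fell. *CXCL8*, a neutrophil chemoattractant controlled by NF-κB, stood at 4.01, 3.93 and 4.02 CPM with sgCTL and at 10.97, 10.5 and 12.5 CPM with sgDNAJC17, a log2 fold change of 1.52 (SE 0.11, adjusted p = 7.26e-07). *GBP1* rose from 84.1, 85.9 and 86.7 CPM to 104, 106 and 110 CPM (0.34, SE 0.06, adjusted p = 0.00106), and the difference from its fall in ES8 was 1.02 by the interaction term (SE 0.14, adjusted p = 0.000276).

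In ES8, none of the 9 genes differed between the ΔRRM group and sgCTL, where 0.093% of all genes were called higher and 0.0814% lower, or between the ΔRRM group and sgDNAJC17, where 7.35% were higher and 7.36% lower. DESeq2 also called none in either comparison. At an unadjusted p under 0.05, edgeR gave none in the first and 1, *IFIT2*, in the second. Against sgCTL, *ISG15* had a log2 fold change of 0.16 (95% interval -0.01 to 0.34), *LY6E* of 0.14 (-0.03 to 0.31) and *MX1* of -0.42 (-0.95 to 0.10). The count against sgCTL was also 0 without ΔRRM replicate C. Against sgDNAJC17, *IFIT2* stood at 2.31, 2.02 and 2.15 CPM in the ΔRRM group, below all 3 knockdown libraries, as for 17% of all genes here. Its log2 fold change was -0.43 (-0.77 to -0.09, adjusted p = 0.088, edgeR), or -0.50 without sgDNAJC17 replicate A (adjusted p = 0.0563) and -0.42 without ΔRRM replicate C (adjusted p = 0.207). Without sgDNAJC17 replicate A, *ISG15* was higher in the ΔRRM group by 0.31 (adjusted p = 0.0486). *CCL2*, a monocyte chemoattractant, held 23, 33 and 44 counts with sgDNAJC17 and 66, 123 and 95 in the ΔRRM group (1.33, SE 0.27, adjusted p = 0.0077, and adjusted p = 0.0158 and 0.0276 without sgDNAJC17 replicate A or ΔRRM replicate C), with 35, 51 and 74 with sgCTL.

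Within the lines, most calls were in Rh30 with ΔRRM. Against sgCTL, 5 of the 8 genes tested rose (*IFIT1*, *IFIT3*, *ISG15*, *IFI6* and *LY6E*) and 1 fell (*IRF7*), where 33.8% of all genes were called higher and 35% lower, 6.66% and 3.32% of all genes by at least 2-fold. The median log2 fold change of the 8 was 0.63 against -0.01 over all genes. *LY6E* again passed the filter only through the libraries in which it was high. Without it, 4 of 7 rose and 1 fell, with a median of 0.61. Scaling by library size alone moved the median of all genes by -0.24 on the log2 scale, and these genes were still called higher with it.

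*IFIT1*, which binds RNA with an unmethylated cap, stood at 3.04, 3.01 and 3.22 CPM with sgCTL, at 3.28, 2.95 and 4.21 CPM with sgDNAJC17 and at 5.77, 6.17 and 5.92 CPM in the ΔRRM group. The 3 ΔRRM libraries lay above the other 6, where 32.6% of all genes lay apart and higher against sgCTL and 30.3% against sgDNAJC17, with a log2 fold change of 1.00 against sgCTL (SE 0.13, adjusted p = 1.02e-09, edgeR), just under the 2-fold limit, and of 0.80 against sgDNAJC17 (SE 0.14, adjusted p = 1.25e-06). *ISG15*, conjugated to proteins during the antiviral response, stood at 24.4, 26.8 and 25.5 CPM with sgCTL, at 25.3, 26.5 and 27.0 CPM with sgDNAJC17 and at 40.9, 37.5 and 41.5 CPM in the ΔRRM group. It too was higher in all 3 ΔRRM libraries than in the other 6, by 0.70 against sgCTL (SE 0.07, adjusted p = 4.77e-13) and by 0.63 against sgDNAJC17 (SE 0.09, adjusted p = 1.02e-09). Over the other settings of scaling, filter, tool, block and GC correction, the change against sgCTL stayed between 0.76 and 1.01 for *IFIT1* and between 0.46 and 0.71 for *ISG15*, with adjusted p of at most 6.6e-06 and 5.96e-07.

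*IFI6* reached 29.5, 27.7 and 28.8 CPM in the ΔRRM group, 0.64 above sgCTL on the log2 scale (SE 0.08, adjusted p = 4.51e-11, edgeR). Against sgDNAJC17 it was higher by 0.20 (adjusted p = 0.0468) with overlapping groups, and the call was lost with DESeq2 (adjusted p = 0.0908), with library size alone (0.04, adjusted p = 0.729) and without sgDNAJC17 replicate A (0.11), ΔRRM replicate A (0.19) or ΔRRM replicate C (0.18), while the GC and length correction gave -0.05. *IFIT3* stood at 5.25, 5.93 and 4.57 CPM, 0.61 above sgCTL (SE 0.14, adjusted p = 7.62e-05) and 0.14 above sgDNAJC17 (95% interval -0.14 to 0.41), a sign that turned with library size alone. *IFIT2*, at 4.80, 5.59 and 3.97 CPM, overlapped both other groups, with 0.24 against sgCTL (-0.03 to 0.51), and was called higher without ΔRRM replicate C (0.34, adjusted p = 0.0314).

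The counts of *IRF7* and *OAS1* were low in Rh30 and uneven in the ΔRRM group. *IRF7* held 57, 45 and 48 counts with sgCTL, 49, 53 and 38 with sgDNAJC17 and 43, 14 and 15 in the ΔRRM group. Replicates B and C were low and A was within the range of the other groups. The log2 fold change was -0.74 against sgCTL (SE 0.31, adjusted p = 0.0277, edgeR) and -0.76 against sgDNAJC17 (SE 0.31, adjusted p = 0.0294). The first call was lost without ΔRRM replicate B (adjusted p = 0.261), ΔRRM replicate C (0.103) or sgCTL replicate A (0.151) and with DESeq2 (0.129). The second was lost without ΔRRM replicate B (0.285), ΔRRM replicate C (0.12) or sgDNAJC17 replicate B (0.147) and with DESeq2 (0.148). *OAS1* held 9, 20 and 19 counts with sgCTL, 19, 27 and 20 with sgDNAJC17 and 16, 3 and 6 in the ΔRRM group. It fell against sgDNAJC17 by 1.19 on the log2 scale (SE 0.45, adjusted p = 0.0168), a call lost without ΔRRM replicate B (0.191), ΔRRM replicate C (0.06) or sgDNAJC17 replicate B (0.114) and with DESeq2 (0.111). *OAS1* passed the filter on low counts here only through the sgDNAJC17 libraries, in which it was high, so its call gives no support. Between ΔRRM and sgDNAJC17 in Rh30, 3 of the 8 genes were higher and 2 lower, *OAS1* among the latter, where 29.4% of all genes were higher and 30.5% lower, 4.42% and 3.36% by at least 2-fold. *LY6E* differed by 0.15 (95% interval -0.61 to 0.90). The 3 comparisons within a line share libraries.

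**Figure D3:**
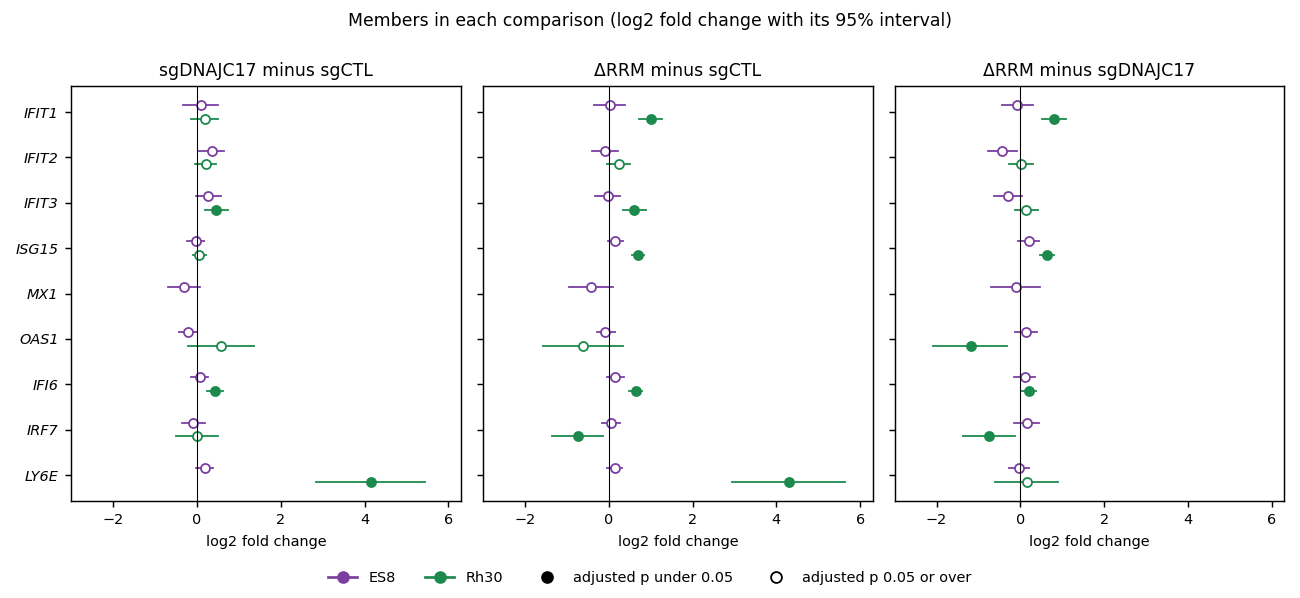
Log2 fold change of each gene with its 95% interval in the 3 comparisons of each line, with filled points at an adjusted p under 0.05. The ES8 points are all open. In both ΔRRM panels the Rh30 points of *IFIT1*, *ISG15* and *IFI6* are filled to the right of 0 and that of *IRF7* to the left. The *OAS1* point against sgDNAJC17 in Rh30 is also filled to the left. The calls of *IRF7*, of *OAS1* and of *IFI6* against sgDNAJC17 were lost in several other fits.

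The rest of the interferon system in the Rh30 ΔRRM group moved in both directions. Of 29 other interferon-stimulated genes tested against sgCTL, 10 rose and 11 fell, with a median log2 fold change of 0.09. Of all genes in this comparison, 33.8% rose and 35% fell, so these counts are near the share of all genes. *OAS3* stood at 29.2, 25.3 and 25.8 CPM with sgCTL and at 8.35, 9.25 and 7.73 CPM in the ΔRRM group (-1.60, SE 0.09, adjusted p = 5.95e-24, edgeR). *IFI44L*, a feedback regulator of the response, held 6, 4 and 12 counts with sgCTL and 25, 20 and 19 in the ΔRRM group (1.84, SE 0.44, adjusted p = 0.000196). *IFI44L* passed the filter on low counts only through the ΔRRM libraries, so its call gives no support. *IFITM1* held 5, 1 and 6 counts with sgCTL and 19, 12 and 9 in the ΔRRM group.

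Of 13 antigen presentation genes tested, 3 rose and 9 fell, with a median of -0.56 against -0.01 over all genes, of which 33.8% rose and 35% fell. The light chain gene *B2M*, named after its value was seen, rose by 0.88 (SE 0.07, adjusted p = 2.56e-17, edgeR).

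Of 12 receptor and signalling genes 3 rose and 5 fell, where 33.8% of all genes rose and 35% fell. *IFNGR1*, which encodes the ligand-binding chain of the interferon-γ receptor, rose by 1.05 (SE 0.07, adjusted p = 1.68e-20, edgeR), from 26.0 ± 1.36 to 51.8 ± 1.27 CPM (SD, n = 3). *STAT2* fell by 0.36 (adjusted p = 5.04e-05). *IRF9*, the DNA-binding part of ISGF3 and also named after its value was seen, held 9 to 39 counts in the Rh30 libraries and had a log2 fold change of 0.34 (SE 0.33). Of 12 sensors and adaptors 2 rose and 5 fell, and of 6 inhibitors 1 rose and 1 fell. *CXCL8* reached 23.4, 22.0 and 23.1 CPM, 2.57 above sgCTL (SE 0.10, adjusted p = 5.55e-31). The NF-κB cytokine list did not rise as a whole. Of 4 of its genes tested, 1 rose and 1 fell against sgCTL, and 1 rose and 2 fell against sgDNAJC17.

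**Figure D4:**
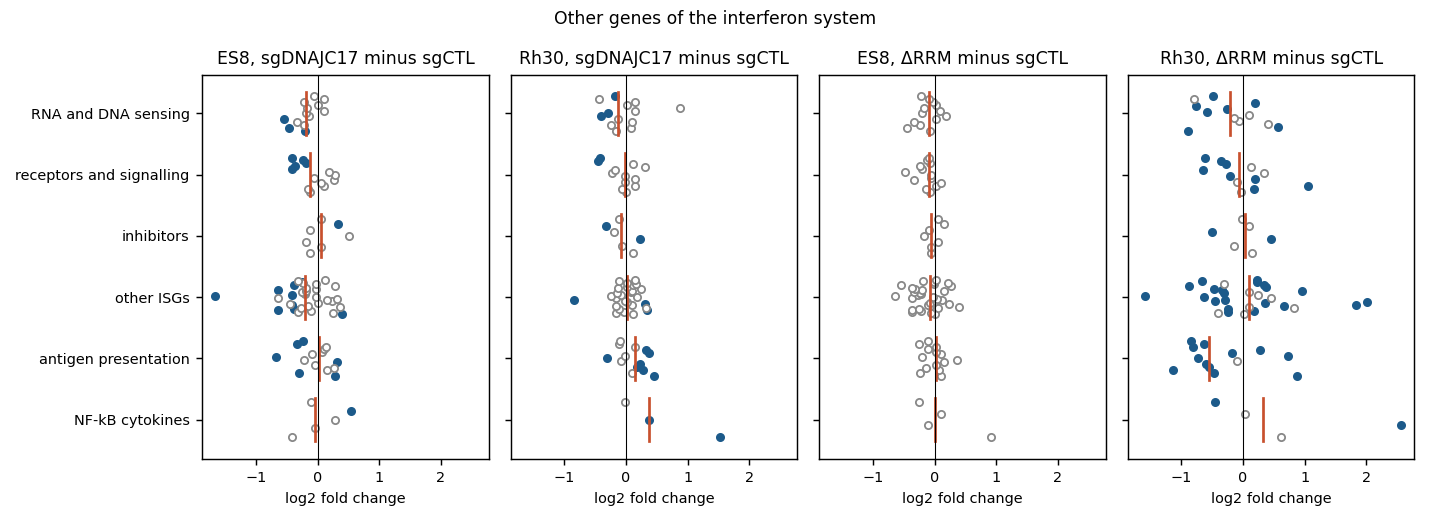
Log2 fold change of the other genes of the interferon system that were tested, by list, in 4 comparisons (filled points, adjusted p under 0.05, and vertical lines, the median of each list). In Rh30 with ΔRRM the antigen presentation genes have a median of -0.56, and the other interferon-stimulated genes lie on both sides of 0.

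The difference between the lines was tested directly. In the interaction of line with sgDNAJC17, 1 of the 9 genes passed, *LY6E*, where 5.23% of all genes were called higher in Rh30 than in ES8 and 4.55% lower. *MX1* could not pass in this test, since it held 0 counts in the Rh30 libraries (0.33, SE 884). Here and in the ΔRRM interaction, *LY6E* passed the filter only through libraries in which it was high, so its calls give no support. *IFI6* and *IFIT3*, called in Rh30 alone, had interaction values of 0.39 and 0.21 and did not pass. The *IFI6* term passed without ES8 sgDNAJC17 replicate A (0.47, adjusted p = 0.0127, edgeR), without Rh30 sgDNAJC17 replicate A (0.49, adjusted p = 0.0213) and with the GC and length correction (0.47, adjusted p = 0.00117). In the interaction of line with ΔRRM against sgCTL, *IFIT1* (0.98), *IFIT3* (0.63), *ISG15* (0.54), *IFI6* (0.49) and *LY6E* rose more in Rh30 and *IRF7* (-0.80) less, where 19.9% of all genes were called higher and 21.5% lower, 3.85% and 2.81% by at least 2-fold.

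Likeness over the 9 libraries of a line was measured as Pearson's r of log2 CPM and is a description only, since the libraries share groups and depth. In Rh30 the genes most like *LY6E* among 15285 were *RCAN1* (0.995), *MAP1LC3B* (0.984) and *YARS2* (0.982), and of the other members *IFIT3* (0.920) and *IFI6* (0.889) came closest. In ES8 the genes most like *IFIT2* among 16998 were *EPM2AIP1* (0.991), *RPL34-DT* and *ZBTB43* (both 0.971), and of the other members *IFIT3* stood at 0.800, *IRF7* at -0.616, *ISG15* at -0.708 and *OAS1* at -0.783.

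The genes lie on several chromosomes of GRCh38. *IFIT2* (10:89283694-89309276), *IFIT3* (10:89327894-89340971) and *IFIT1* (10:89392546-89406486) form a cluster on the plus strand of chromosome 10. *ISG15* (1:1001138-1014541, plus strand) and *IFI6* (1:27666061-27672218, minus strand) lie on chromosome 1, *MX1* (21:41420304-41459214, plus) on chromosome 21, *OAS1* (12:112906777-112933222, plus) on chromosome 12, *IRF7* (11:612553-615999, minus) on chromosome 11 and *LY6E* (8:143017982-143023832, plus) on chromosome 8. The values are sums over the annotated exons, UTRs included. The strand setting of the counting is not given in the sources used here, and *IFIT2* shares 65 exonic bases with *LIPA* on the other strand and 356 with an unnamed gene on its own strand, so its value is the least certain of the cluster. The IFIT genes are related in sequence, and reads that match several of them may be split or lost in counting.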

How the data were processed

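RNA of 18 libraries was measured by RNA-seq of polyadenylated RNA. Per the labels, the authors trimmed reads with Trimmomatic 0.36, aligned them with STAR 2.5.2b and deposited raw counts per gene from featureCounts of Subread 1.5.2, not normalized. The processing notes name GRCh38 and the methods an older build. In the files, 85.35% of 18946 protein-coding genes start within 1 kb of their GRCh38.p14 position, so positions were taken as GRCh38.

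Counts were tested per comparison with edgeR 4.0.16 in R 4.3.3 (filterByExpr, TMM, quasi-likelihood test, Benjamini-Hochberg over all genes, threshold 0.05). DESeq2 1.42.0 was used as an alternative. The standard error is the log2 fold change divided by the root of F. The edgeR script was tested on simulated data. Genes named besides the 9 were set by a rule, except where the text says that a gene was named after its value was seen: in each list and comparison, up to 3 genes with an adjusted p under 0.05, a fold change of at least 2 and a mean count of at least 10, and the 3 genes most like the member with the largest change. The members, lists and rule were chosen with earlier results of these data known.

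Library totals of 35342393 to 48245989 counts limit genes with few counts, whose intervals are wide. Other scalings, filters, tools and thresholds, the replicate block and leaving out each library were tried as alternatives. A GC and length correction (lowess span 0.3) and an unadjusted p were added after the counts of the members had been seen. The listed set was described as holding 10 genes, and 9 were given and used. Splicing was not analysed here, and some genes of the pathway lists are not reported here by name.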

Additional observations from a re-analysis of the deposited data

Results flagged for a closer look

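Of the 9 genes, 6 responded differently in the 2 lines by the test of the difference itself (the edgeR interaction term, Rh30 minus ES8, adjusted p under 0.05). For sgDNAJC17 against sgCTL this was *LY6E*, with 4.0 on the log2 scale, a fitted value against 3 counts in Rh30 sgCTL that is no bound. For ΔRRM against sgCTL the values were 0.98 for *IFIT1*, 0.63 for *IFIT3*, 0.54 for *ISG15*, 0.49 for *IFI6*, 4.19 for *LY6E* and -0.80 for *IRF7*. Over all genes, 5.23% were called higher and 4.55% lower in the first test, and 19.9% and 21.5% in the second. *LY6E* passed the filter on low counts only through libraries in which it was high, so its calls give no support. Without it, 0 of 8 genes passed in the first test, and 4 were higher and 1 lower in the second. Of these 8, *MX1* could not pass in the first test, since it held 0 counts in the Rh30 libraries used there. The *IRF7* value rests on few counts and was not called in 6 of the 12 fits that left out 1 library. With library size alone, *IFIT3* (0.42, adjusted p = 0.0966, edgeR) and *IFI6* (0.27, adjusted p = 0.0679) did not pass.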

How the results depend on the processing

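Each count of members called was recomputed under the alternatives. After sgDNAJC17 in ES8, 1 gene was higher without a filter or at an unadjusted p, 2 were higher and 1 lower with the GC and length correction, and without 1 library 0 to 2 were higher and 0 to 3 lower. In Rh30, requiring 2-fold left 1 higher after sgDNAJC17, and 1 higher and 0 lower for ΔRRM against sgCTL. For the latter, 0 were lower with DESeq2, the GC correction or an adjusted p under 0.01, and 0 to 2 without 1 library. For ΔRRM against sgDNAJC17 in ES8, 1 was higher and 1 lower with the GC correction, 1 lower in a fit of all libraries or at an unadjusted p, and 0 to 1 higher without 1 library. In Rh30, the 2-fold rule left 0 higher and 1 lower, 1 was lower with at least 10 counts per library or the GC correction, 0 with DESeq2 or an adjusted p under 0.01, and 0 to 2 without 1 library. *IFI6* turned to -0.05 there with the GC correction.

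Between the lines, 1 was higher with library size alone, DESeq2, the GC correction or an adjusted p under 0.01, 0 with the 2-fold rule, 1 to 3 without 1 library, and 2 were lower with at least 10 counts per library. In the interaction with sgDNAJC17, 0 passed with at least 10 counts per library, 3 with the GC correction or an unadjusted p, and 1 to 2 without 1 library. In that with ΔRRM, 3 were higher with library size alone and 1 with the 2-fold rule, 0 were lower with the GC correction, an adjusted p under 0.01 or the 2-fold rule, and 0 to 2 without 1 library. Over single genes, 1254 values kept direction and side of the threshold, 25 gained a call, 42 lost one and 1 reversed, and the cause of these changes was not tested.

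The pairing of replicates by letter was checked over 3 sets of genes, 2 of them chosen after calls had been seen, and its outcome depends on the set. In the Rh30 knockdown the correlations of same-letter deviations were 0.125, 0.020 and 0.054 over genes with a mean of at least 10 counts in all libraries, 0.202, 0.072 and 0.097 over all genes tested, and 0.576, 0.287 and 0.348 over genes with a mean of at least 100. In the other 6 comparisons none of the sets gave all letters over 0.1. With the replicate block, 3 members were again higher in the Rh30 knockdown, with 3621 genes higher and 3614 lower against 2473 and 2501, and of the members called in Rh30 only *IFI6* in ΔRRM against sgDNAJC17 lost its call (0.21, adjusted p = 0.0529, edgeR).

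Over all genes, the fit of sgDNAJC17 in ES8 called 2336 higher and 2365 lower, 3950 and 4044 without sgDNAJC17 replicate A, 1331 and 1171 without sgCTL replicate C, and 3855 and 3474 with the GC correction. ΔRRM against sgCTL in ES8 gave 16 and 14, 192 and 327 without a filter, 56 and 66 with DESeq2, 44 and 58 with the replicate block, 82 and 73 with the GC correction, 229 and 231 without ΔRRM replicate A, 80 and 70 without ΔRRM replicate B, 10 and 3 without ΔRRM replicate C, 3 and 2 without sgCTL replicate A, and 2 and 0 without sgCTL replicate B or C. ΔRRM against sgDNAJC17 in ES8 gave 1257 and 1259, 618 and 735 with the block, 2127 and 2409 in a fit of all libraries, 460 and 610 without ΔRRM replicate C, and 2754 and 2858 with the GC correction. Library size alone split the calls 1931 to 2978 for sgDNAJC17 in ES8, 1714 to 3207 for sgDNAJC17 in Rh30, 3585 to 7226 for ΔRRM against sgCTL in Rh30, against 5216 to 5410, and 3220 to 6226 for ΔRRM against sgDNAJC17 in Rh30. Depth limits *MX1*, *OAS1*, *IRF7* and *LY6E* in Rh30.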
